A study of Mus musculus with 71 samples.

Results

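RNA was sequenced from micro-punches of the prefrontal cortex (PFC) of wild-type C57BL/6 mice (C57BL/6J in the methods) killed 1 day after their last drug session. Of the 71 libraries of the series, 12 belonged to this comparison, 6 from mice that had self-administered cocaine and 6 from mice that had self-administered saline. The remaining libraries were from the nucleus accumbens (NAc), the ventral tegmental area (VTA) or the PFC at 28 days of abstinence. Mice are given as 8 weeks old, and their age when killed, after training and sessions, is not stated. They had first learned to respond for food and carried a jugular catheter, and those of the cocaine group received 0.7 mg/kg/infusion. Each mouse worked in 2-hour daily sessions on 21 consecutive days, in which every response on the active wheel was paid and paired with light and tone. Saline mice had the same training, surgery, session schedule and kind of cues, and by design the groups differed in the infused drug. The study reports that cocaine mice responded more and took more infusions, so the numbers of responses and cues differed as well. The methods give male and female mice and the labels give no sex, and neither says whether punches of several animals were pooled in a library. The p-values below therefore measure the spread between libraries labelled as separate samples.

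Levels are RPKM, the reads on a gene divided by its length and by the total reads of its library. Of 37681 genes in the PFC table, the 14427 with a mean of at least 0.5 RPKM over the 12 libraries were kept, and those genes are described here. The last gene inside that limit was Slc4a11 at a mean of 0.50025 RPKM, and the first outside it was Stat4 at 0.4998 RPKM. Cocaine was compared with saline in limma on log2(RPKM + 0.1), a scale that understates the change of low genes, and p-values were adjusted over all 14427 genes by the Benjamini-Hochberg method. A gene was called at an adjusted p under 0.05. Libraries were also simulated from the means and dispersions of these, with 200 genes changed and every gene drawn independently. There this test recovered 13% of genes changed 1.25-fold, 78.5% of genes changed 1.5-fold and 95.5% of genes changed 2-fold. In the real libraries variation is shared between genes and few genes were called, so these shares may be too high for them.

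Whole reads could be recovered from the RPKM values and came to between 23549543 and 29614689 per library (median 25748131). Genes of the cortex were abundant in both groups. Slc17a7, the vesicular glutamate transporter of cortical excitatory neurons, averaged 395 RPKM after cocaine and 413 RPKM after saline, and the choroid plexus marker Ttr lay at 0.546 and 0.482 RPKM. The Y-linked genes Ddx3y and Eif2s3y were present in all 12 libraries, while Xist reached at most 0.00944 RPKM, the pattern of male tissue. By correlation cocaine replicate 5 stood apart from the other 11 libraries, with a median Spearman correlation of 0.9873 to them against 0.99 to 0.994 for the rest. On the main axis of variation (first principal component, 24% of the variance) it lay at 22.4. Saline replicates 1, 2 and 3 lay far out there too, at -19.8, -18.8 and 18.7. Cocaine replicate 5 had the highest level of 11 of the 12 oligodendrocyte markers, and some of the lists in which that library stood out are given with and without it.

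The prefrontal cortex regulates the seeking of drug and receives both dopamine and stress signals. Cocaine raises circulating glucocorticoids, the adrenal stress hormones, whose receptor is a transcription factor in neurons, glia and vessels. Once bound by hormone the receptor enters the nucleus and occupies a palindromic DNA element, from which it induces a small set of genes that includes feedback inhibitors of the receptor itself. Neuronal activity induces another set, the immediate early genes, within minutes, and their RNA is short-lived.

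Little separated the groups gene by gene. A single gene, Plin4, was called of 14427 (0.00693% of genes), and it rose after cocaine. Plin4 encodes perilipin 4, a coat protein of lipid droplets, and is also a known glucocorticoid-induced gene. Without saline replicate 4, cocaine replicate 4 or saline replicate 3 the Plin4 log2 fold change had an adjusted p of 0.0503, 0.0568 or 0.0583 in limma and was not called, and DESeq2 called 5 genes, Plin4 among them. At an unadjusted p under 0.05 there were 598 genes (4.15%), 237 of them higher after cocaine (1.64%) and 361 lower (2.5%). That split was 285 higher and 333 lower with RPKM rescaled by TMM, 337 and 356 in DESeq2, and 167 and 378 without cocaine replicate 5. Without saline replicate 2 it was 233 and 250. The median log2 fold change over all genes was -0.01, and 6546 of the 14427 genes had a value above 0. In 12 genes every cocaine library lay above every saline library (0.0832% of genes), and in 11 genes every cocaine library lay below (0.0762%).

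**Figure D1:**
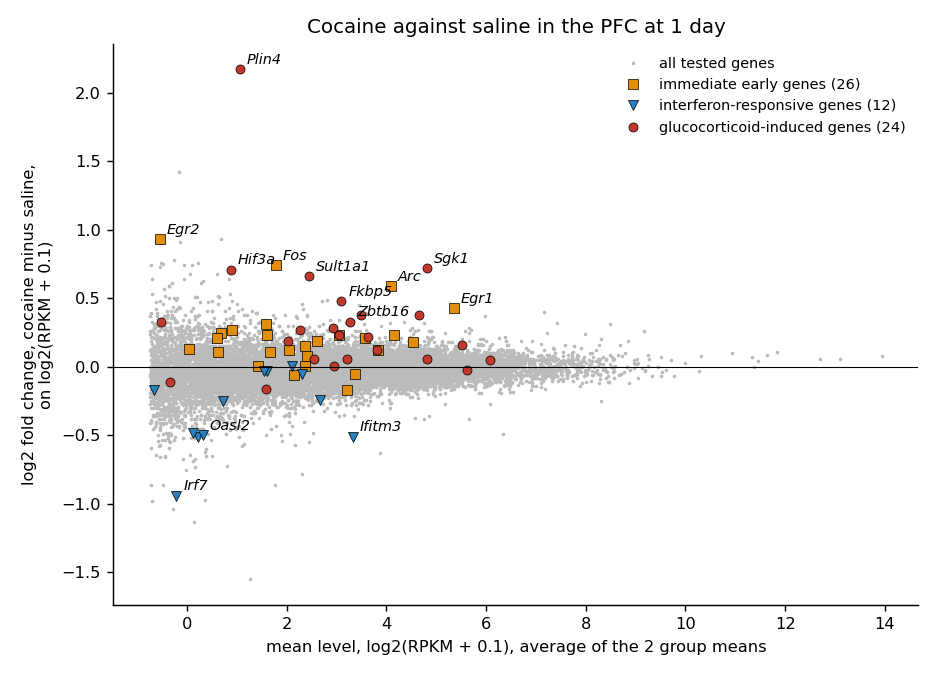
Mean level over the 12 PFC libraries (x axis, RPKM, log scale) against the log2 fold change of cocaine over saline (y axis) for 14427 genes (grey), with glucocorticoid-induced genes as red circles, immediate early genes as orange squares and interferon-responsive genes as blue triangles. Plin4 stands highest at 2.17, most glucocorticoid-induced and immediate early genes lie above 0, and 11 of 12 interferon-responsive genes lie below 0.

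The sequences below show DNA in front of some of the glucocorticoid-induced genes described next. The first is the promoter of Plin4, the called gene, from RefSeq (GRCm38.p6, chr17:56109733-56110032, minus strand, 250 bases before the start to 50 after it). The receptor's palindrome, searched as GNACA and TGTNC with any 3 bases between them and so the same on both strands, was not found in it, which says only that these letters are absent from this window.

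Plin4 promoter: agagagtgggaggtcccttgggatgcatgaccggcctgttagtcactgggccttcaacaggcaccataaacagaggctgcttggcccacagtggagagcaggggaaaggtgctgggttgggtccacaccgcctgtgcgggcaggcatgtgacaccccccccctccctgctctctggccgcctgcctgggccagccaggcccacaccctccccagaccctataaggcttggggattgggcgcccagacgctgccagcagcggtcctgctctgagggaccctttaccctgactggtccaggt

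The palindrome was then searched in the 5000 bases before the start of each gene, in mm9. It was found before 1169 of 14404 genes (8.12%) and before 8 of the 24 glucocorticoid-induced genes described below. In RefSeq promoters it was found in 30 of 9539 genes (0.314%) and in 3 of the 20 list genes with a promoter sequence. These are matches of letters and not shown to be bound sites. No match was found in this longer window before Plin4, and 3 of the 12 list genes with an unadjusted p under 0.05 had one. The windows before Fkbp5, Dusp1 and Map3k6 are printed because these members had an unadjusted p under 0.05 and a match, with the palindrome in capitals.
Fkbp5 at chr17:28655120-28655142 (minus, 656 bases before the start): gcccgGGACATTGTGTTCcagcc
Fkbp5 at chr17:28655972-28655994 (minus, 1508 bases before): tccagGCACAGGGTGTCCctagg
Fkbp5 at chr17:28659068-28659090 (minus, 4604 bases before): aaggaGGACAAAGTGTTCcatgc
Dusp1 at chr17:26646427-26646449 (minus, 968 bases before): gatgaGTACAGTTTGTCCcacag
Map3k6 at chr4:132796547-132796569 (plus, 169 bases before): tagggGCACAGGCTGTTCcggaa

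Plin4 (ENSMUSG00000002831, mm9 chromosome 17, 56240014 to 56249225, minus strand) was at 5.57, 2.58, 2.10, 3.49, 4.16 and 2.10 RPKM in the 6 cocaine libraries. In the 6 saline libraries it was at 0.756, 0.953, 0.573, 0.586, 0.609 and 0.361 RPKM. These values rested on 305 to 921 reads per cocaine library and 58 to 133 reads per saline library. The lowest cocaine library lay above the highest saline library, so the groups did not overlap. The mean was 5.21-fold higher after cocaine (log2 fold change 2.17, SE 0.247). Cocaine replicate 1 had the highest level and replicates 3 and 6 the lowest of their group.

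Other genes of lipid droplets lay closer to 0. Of 15 perilipin and lipid droplet genes, 12 were tested, 7 had a log2 fold change above 0 and the median was 0.07. The widely expressed coat proteins Plin2 and Plin3 had log2 fold changes of -0.02 and 0.17, and Plin1, Plin5 and Cidec were under the limit of 0.5 RPKM. Besides Plin4, the member with an unadjusted p under 0.05 was Fitm2, a protein of the endoplasmic reticulum that promotes droplet formation, at 7.91 against 7.37 RPKM (log2 fold change 0.10).

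Glucocorticoid-induced genes were, as a list, higher after cocaine. Of 25 members 24 were tested, with Lcn2 too low, and 21 of the 24 had a log2 fold change above 0, with a median of 0.23 against -0.01 over all genes. An unadjusted p under 0.05 was reached by 12 members on the higher side, against 1.64% of all genes, and by 0 on the lower side. Apart from Plin4 no member was called, with adjusted p-values of 0.319 for Fkbp5, 0.455 for Hif3a and Zbtb16 and 0.918 for the other 8. The list was chosen with earlier results of these libraries known, and its count and median are a description.

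**Figure D2:**
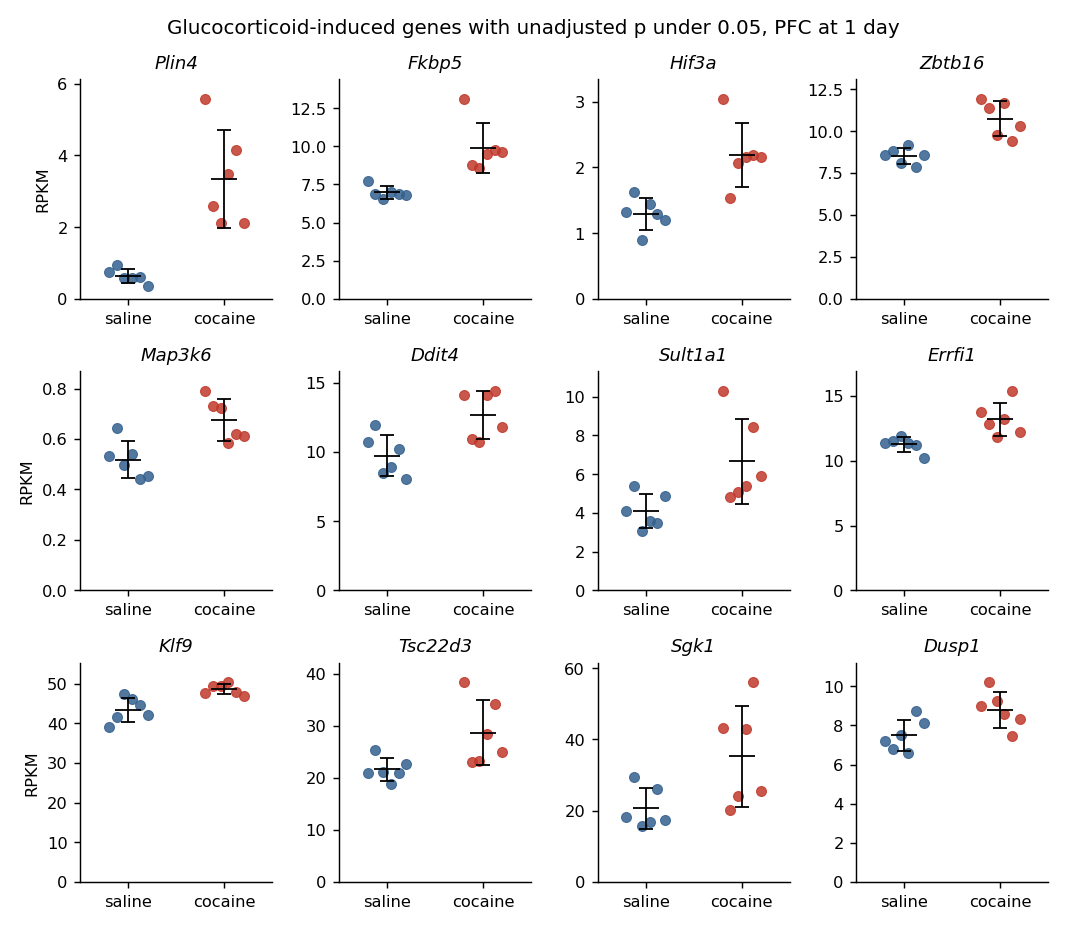
RPKM of the 12 glucocorticoid-induced genes with an unadjusted p under 0.05, 1 panel per gene, with saline libraries in blue and cocaine libraries in red (6 each) and bars for the mean ± SD. Plin4, Fkbp5 and Zbtb16 do not overlap between the groups, and in the other 9 panels the lowest cocaine libraries lie within the saline range.

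Fkbp5 encodes the co-chaperone FKBP51, which lowers the hormone affinity of the glucocorticoid receptor and is a standard reporter of its activity (ENSMUSG00000024222, mm9 chromosome 17, 28536040 to 28654469, minus strand). It ranged from 8.56 to 13.1 RPKM after cocaine (median 9.57) and from 6.52 to 7.73 RPKM after saline (median 6.89). The groups did not overlap, and the log2 fold change was 0.48 (SE 0.0904). Cocaine replicate 1 lay apart from the rest of its group at 13.1 RPKM.

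Zbtb16 encodes the zinc finger repressor PLZF, another early target of the receptor. Its levels lay between 9.39 and 11.9 RPKM after cocaine (median 10.8) and between 7.85 and 9.16 RPKM after saline (median 8.56). These ranges are close together but did not overlap, with a log2 fold change of 0.33 (SE 0.0695). In addition to Plin4, Fkbp5 and Zbtb16 were the members of the list whose groups stood clear of each other.

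Hif3a encodes a hypoxia-inducible factor that lacks the strong activation domain of its relatives and opposes them (ENSMUSG00000004328, mm9 chromosome 7, 17616856 to 17647776, minus strand). Its cocaine levels were 3.04, 1.53, 2.07, 2.16, 2.19 and 2.16 RPKM and its saline levels 1.32, 1.62, 0.891, 1.44, 1.29 and 1.2 RPKM. Cocaine replicate 2 fell within the saline range and the other 5 cocaine libraries lay above it. The log2 fold change was 0.71 (SE 0.149). Of 17 genes of the hypoxia system, Hif3a was the member with an unadjusted p under 0.05, and the median of the 17 was 0.0, with 8 above 0.

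The kinase and regulator genes of the list varied more between libraries. Sgk1, a serum- and glucocorticoid-induced kinase that acts on ion channels, was at 43.2, 20.1, 24.0, 42.9, 56.0 and 25.5 RPKM after cocaine. After saline it was at 18.2, 29.5, 15.6, 16.8, 26.2 and 17.4 RPKM. The 3 cocaine libraries over 40 RPKM were replicates 1, 4 and 5, and the other 3 lay within the saline range, so the log2 fold change of 0.72 carried an SE of 0.253. Tsc22d3 encodes GILZ, an anti-inflammatory mediator of the hormone, and its highest cocaine libraries were also replicates 1 and 5, at 38.3 and 34.1 RPKM. Its group means were 28.7 RPKM after cocaine and 21.6 RPKM after saline (log2 fold change 0.38, SE 0.126).

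Of the remaining members past the unadjusted limit, the largest difference was that of Sult1a1, a phenol sulfotransferase, at a mean of 6.65 RPKM after cocaine and 4.08 RPKM after saline (log2 fold change 0.66, SE 0.194). Ddit4, which encodes the mTOR inhibitor REDD1, was at 12.7 against 9.7 RPKM (0.38, SE 0.112), and the kinase gene Map3k6 was at 0.676 against 0.518 RPKM (0.33, SE 0.0894). Smaller differences were found for Errfi1, a feedback inhibitor of the EGF receptor (13.2 against 11.3 RPKM, 0.22, SE 0.0671), for Klf9, a transcription factor (48.6 against 43.4 RPKM, 0.16, SE 0.054), and for Dusp1, a phosphatase of MAP kinases (8.81 against 7.49 RPKM, 0.23, SE 0.0853). The highest saline library of Klf9, at 47.3 RPKM, lay just above its lowest cocaine library, at 46.9 RPKM.

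Members of the list that missed the unadjusted limit lay on both sides of 0, more of them above it. Nfkbia, the inhibitor of NF-kB, and Arrdc2, an arrestin-like protein, had log2 fold changes of 0.28 and 0.27. Per1, a clock gene without a palindrome in either window searched, had 0.12. The metallothioneins Mt1 and Mt2 had 0.05 and -0.02, and the cell cycle inhibitor Cdkn1a had 0.01. Angptl4, an inhibitor of lipoprotein lipase, had -0.11 and the transglutaminase Tgm2 had -0.16. Palindromes stood before both metallothioneins, Bcl6, Gpd1 and Txnip as well, all of them with log2 fold changes between -0.02 and 0.06.

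The mean log2 level of the list was 3.42, 3.0, 3.01, 3.2, 3.27 and 3.01 in the cocaine libraries and 2.92, 3.06, 2.7, 2.71, 2.79 and 2.83 in the saline libraries. The groups met at saline replicate 2, which lay above cocaine replicates 2, 3 and 6. Cocaine replicate 1 had the highest level of 10 of the 24 members and cocaine replicate 5 that of 7. Markers of oligodendrocytes were on the higher side as well. Of 12 oligodendrocyte markers 11 had a log2 fold change above 0, none had an unadjusted p under 0.05 and their median was 0.20, with summed levels of 1630 to 3440 RPKM after cocaine and 1290 to 2600 RPKM after saline. Without cocaine replicate 5 the median of the oligodendrocyte markers was 0.08. In the same fit the median of the glucocorticoid-induced genes was 0.19 and the number with an unadjusted p under 0.05 was 12. The part of oligodendrocyte content in the result was not tested. In punches of tissue a change in the number of cells of a type and a change in RNA per cell cannot be told apart.

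The receptors themselves differed little. Nr3c1, the glucocorticoid receptor gene, ranged from 19.9 to 24.9 RPKM after cocaine and from 19.7 to 26.0 RPKM after saline (log2 fold change 0.05). Nr3c2, the mineralocorticoid receptor gene, averaged 6.69 RPKM after cocaine and 7.51 RPKM after saline (-0.16, SE 0.0888). Crhr1, the receptor of corticotropin-releasing hormone, was at 6.91 against 7.5 RPKM (-0.12), and the hormone gene Crh had 0.08. Of the 7 tested genes of this system 0 had an unadjusted p under 0.05, and their median was -0.01. Among 14 tested heat shock proteins and cochaperones 13 had values above 0, with a median of 0.09, and Hspa1a, the inducible HSP70, passed the unadjusted limit at 0.693 against 0.536 RPKM (0.32). Cocaine replicate 5 had the highest level of 8 of the 14, and saline replicate 6 the lowest level of 8. Leaving out 1 library at a time gave medians of 0.07 to 0.11 for this list.

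**Figure D3:**
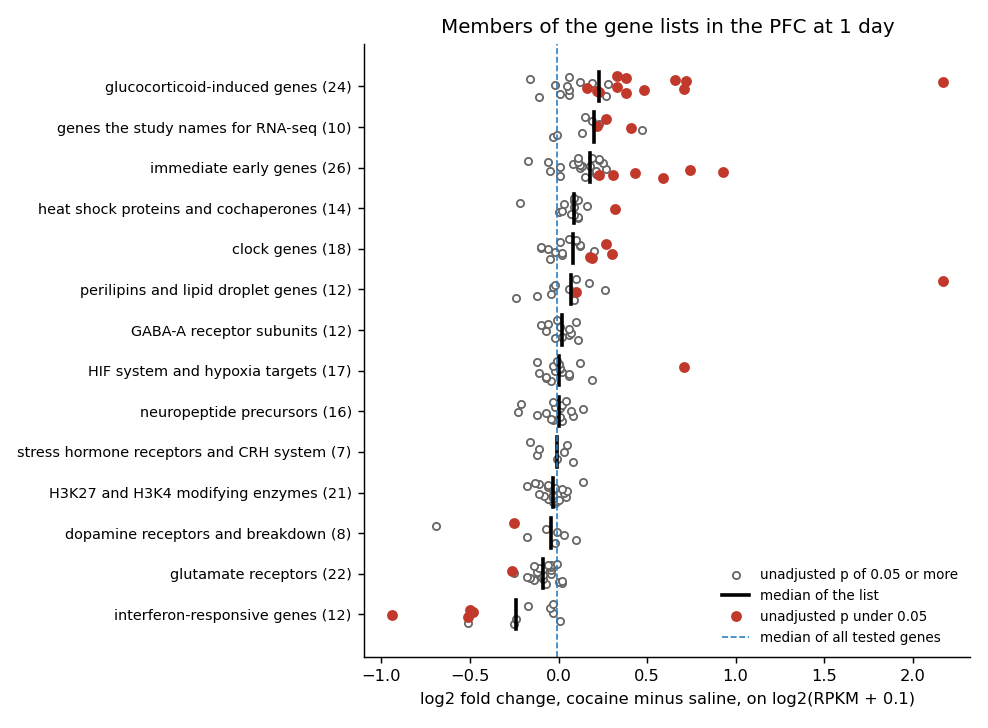
Log2 fold change of cocaine over saline in the PFC at 1 day for every tested member of 14 gene lists (points; red, unadjusted p under 0.05), with the median of each list (black bar) and of all 14427 genes (dashed line, -0.01). The list medians run from -0.24 for interferon-responsive genes to 0.23 for glucocorticoid-induced genes.

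Immediate early genes, the markers of recent neuronal firing, were mostly higher after cocaine. Of 26 members 23 had log2 fold changes above 0, the median was 0.18 and the range ran from -0.17 to 0.93. An unadjusted p under 0.05 was reached by 6 on the higher side (1.64% of all genes) and by 0 on the lower side, and no member was called. Fos, a subunit of the AP-1 factor, ranged from 2.46 to 8.04 RPKM after cocaine (median 3.58) and from 1.95 to 3.02 RPKM after saline (median 2.22), so that the ranges overlapped (log2 fold change 0.74, SE 0.236). Egr1, a zinc finger factor of synaptic plasticity, averaged 47.3 against 34.1 RPKM (0.43, SE 0.182). Its relative Egr2 had 0.826 against 0.348 RPKM (0.93, SE 0.339), and Arc, which regulates AMPA receptor endocytosis, had 20.5 against 13.4 RPKM (0.59, SE 0.252). The other members past the unadjusted limit were Dusp1, described above, and Dusp5, both phosphatases of MAP kinases, with Dusp5 at 3.24 against 2.59 RPKM (0.31, SE 0.08).

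Much of this lay in a single library. Cocaine replicate 2 had the highest level of 18 of the 26 immediate early genes, and the mean log2 level of the list was 2.77 there and 2.59 in cocaine replicate 1. The other 4 cocaine libraries lay between 2.14 and 2.24, within the saline range of 1.94 to 2.33. Without cocaine replicate 2, 3 members had an unadjusted p under 0.05 in place of 6, and the median log2 fold change was 0.10. Cocaine replicate 2 also had the highest level of 4 of 5 blood markers, with a summed 85.1 RPKM against 22.1 to 67.5 RPKM in the saline libraries, and the part of blood RNA in the result was not tested.

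**Figure D4:**
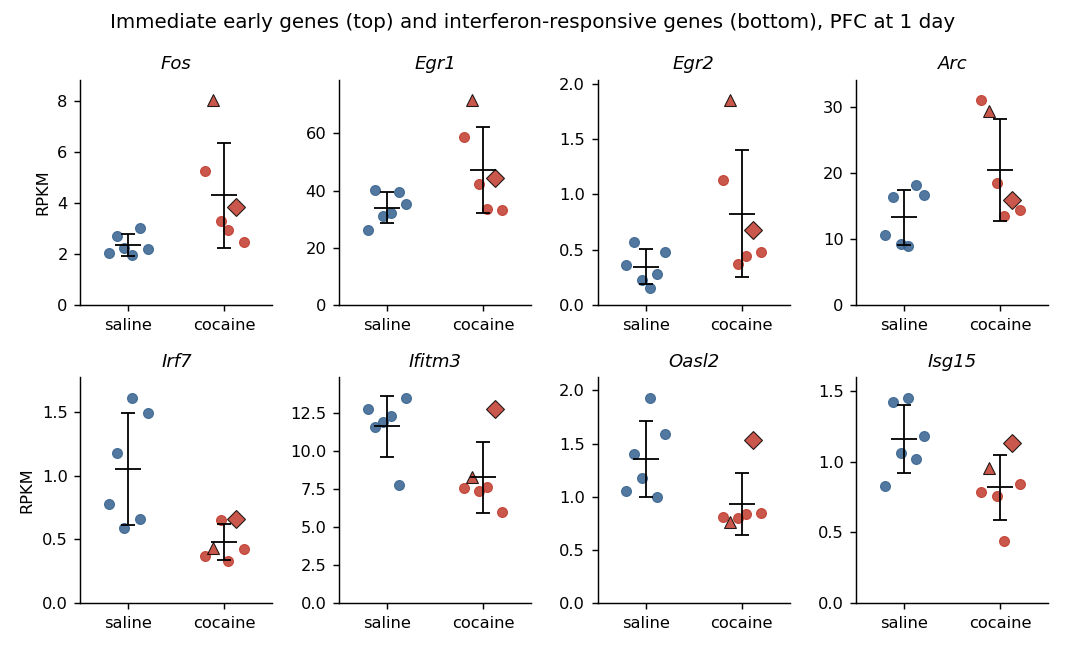
RPKM of the immediate early genes Fos, Egr1, Egr2 and Arc and of the interferon-responsive genes Irf7, Ifitm3, Oasl2 and Isg15, with saline libraries in blue, cocaine libraries in red (6 each) and bars for the mean ± SD. Cocaine replicate 2 (triangle) holds the highest Fos value, 8.04 RPKM, and cocaine replicate 5 (diamond) holds the highest cocaine values of Ifitm3, 12.8 RPKM, and Oasl2, 1.53 RPKM.

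Clock genes, which set the daily rhythm of the cell, had 13 of 18 values above 0 and a median of 0.08, and 4 members had an unadjusted p under 0.05, all higher (1.64% of all genes). The repressors Cry1 (6.86 against 5.55 RPKM, log2 fold change 0.30, SE 0.0899), Bhlhe40 (53.5 against 46.8 RPKM, 0.19, SE 0.0561) and Bhlhe41 (7.2 against 6.36 RPKM, 0.18, SE 0.0665) were among them. The fourth was Per2, with cocaine libraries at 10.5, 9.69, 6.75, 8.76, 6.77 and 7.31 RPKM and a saline mean of 6.8 RPKM (0.27, SE 0.113). Its levels overlapped between the groups, with cocaine replicates 1 and 2 the highest. The time of day of each killing is not given in the sources used here.

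A list of 10 genes that appear in the study's text or among its qPCR primers was examined in the PFC as well. The genes that its supplement shows for 28 days were left out. Cartpt and Per2, which its main text also reports as changed at 28 days in the NAc, were kept. Most were picked by the study from libraries of this series, so their direction is not independent evidence. Of the 10, 8 had values above 0, the median was 0.2 and 3 had an unadjusted p under 0.05 on the higher side (1.64% of all genes), a number that ran from 1 to 5 when 1 library was left out. These were Per2, Mertk, a receptor kinase by which glia clear debris (13.7 against 11.7 RPKM, log2 fold change 0.22, SE 0.101), and Kirrel2, an adhesion protein of the immunoglobulin family (2.23 against 1.66 RPKM, 0.41, SE 0.136). The orphan nuclear receptors Nr4a1 and Nr4a3 had 0.23 (SE 0.151) and 0.19 (SE 0.156). Fmo2, a flavin monooxygenase, had 0.47 (SE 0.228) without reaching the limit, and Raver2 and Ccdc141 had 0.15 and 0.13. The peptide gene Cartpt and the ubiquitin ligase gene Cbl were at -0.03 and -0.01.

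Interferon-responsive genes lay on the lower side. Of 14 members 12 were tested, with Oas1a and Rsad2 too low, and 11 of the 12 had a log2 fold change under 0, with a median of -0.24 against -0.01 over all genes. An unadjusted p under 0.05 was reached by 4 members on the lower side, against 2.5% of all genes, and none was called. Irf7, the transcription factor that amplifies the type I response, was at 0.372, 0.435, 0.649, 0.328, 0.656 and 0.424 RPKM after cocaine. After saline it was at 0.773, 1.18, 0.591, 1.61, 0.661 and 1.49 RPKM. Saline replicate 3 lay within the cocaine range, saline replicate 5 just above it, and the other 4 well above it. The log2 fold change was -0.94 (SE 0.238, adjusted p = 0.806 in limma).

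Ifitm3, a membrane protein that blocks entry of viruses, was at 7.54, 8.3, 7.34, 7.65, 12.8 and 6.02 RPKM after cocaine and 12.8, 11.6, 11.9, 12.3, 7.79 and 13.5 RPKM after saline. Except for cocaine replicate 5 and saline replicate 5, every cocaine library lay under 9 RPKM and every saline library over 11 RPKM, and the log2 fold change was -0.51 (SE 0.167). Oasl2, a relative of the oligoadenylate synthetases, averaged 0.932 against 1.36 RPKM (-0.50, SE 0.179), and the ubiquitin-like Isg15 averaged 0.817 against 1.16 RPKM (-0.48, SE 0.18). Without cocaine replicate 5 the number past the unadjusted limit was 6 and the median -0.33. With genes kept from a mean of 1 RPKM the number was 2, since Irf7 and Isg15 lie below that mean.

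Markers of vessels and meninges were on the lower side too. All 10 mural cell markers and all 8 tested meningeal fibroblast markers of 10 had log2 fold changes under 0, with medians of -0.25 and -0.48. Vtn, a matrix protein of pericytes, averaged 23.4 RPKM after cocaine and 30.8 RPKM after saline (-0.38, SE 0.0996), and Fmod, a collagen-binding proteoglycan, averaged 0.763 and 1.62 RPKM (-0.97). The summed mural level was 59.1 to 83.1 RPKM after cocaine and 72.0 to 99.0 RPKM after saline, and the mean log2 level of the meningeal markers was 0.45 ± 0.527 and 0.95 ± 0.605 (SD, n = 6 each). No marker of these lists was at 0 in all libraries. Of 12 endothelial markers 9 lay at or under 0, with a median of -0.11, and Tek, Cdh5 and Esam passed the unadjusted limit at -0.30, -0.26 and -0.20 (2.5% of all genes on the lower side). Leaving out 1 library at a time gave 1 to 5 such markers and medians of -0.16 to -0.03. The part of these cells in the interferon values was not tested.

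The markers of other cell types had medians near 0. The median log2 fold change was -0.01 for 12 astrocyte markers, -0.02 for 8 markers of oligodendrocyte precursors, -0.07 for 12 microglial markers, -0.06 for 9 upper-layer neuron markers, -0.03 for 10 deep-layer neuron markers and -0.02 for 10 interneuron markers. Slc1a2, the main astrocytic glutamate transporter, was at 319 and 315 RPKM, and Sst, the somatostatin gene of a class of interneurons, at 150 and 153 RPKM. Striatal medium spiny neuron markers, which a deep punch could include, had a median of 0.05, with 6 of 10 tested above 0 and 1 past the unadjusted limit. Cocaine replicate 5 had the highest level of 6 of them, and the median was -0.01 without it. The 5 blood markers had a median of 0.06, and the 4 tested sex-linked genes 0.04. Of these Uty, a Y-linked demethylase relative, and Kdm5d, a Y-linked lysine 4 demethylase, passed the unadjusted limit at 0.19 and -0.17. Of 10 choroid plexus markers 2 were tested, both at -0.05. Gjb6, a gap junction protein of astrocytes, passed the unadjusted limit at 0.24.

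The genes of synaptic transmission gave no member that was called. Glutamate receptor genes leaned low, with 3 of 22 values above 0, a median of -0.09 and a range of -0.26 to 0.02. Grin2d, an NMDA receptor subunit, was the member past the unadjusted limit, at 1.17 against 1.41 RPKM (-0.26, SE 0.114). Cocaine replicate 5 had the lowest level of 10 of the 22, and the median was -0.04 without it. GABA-A receptor subunits had a median of 0.02 with 7 of 12 above 0, and neuropeptide precursors had a median of 0.0 with 8 of 16 above 0, Tac2 at -0.21 and Pdyn at 0.07 among them.

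Of the genes of dopamine reception and breakdown, 8 of 10 were tested, with Drd3 and Drd4 too low, and 2 of the 8 lay above 0 (median -0.04). Their values ran from -0.69 to 0.1, and the member at -0.69 did not pass the unadjusted limit. Th, the rate-limiting enzyme of dopamine synthesis, passed the unadjusted limit on the lower side, at 1.79 against 2.16 RPKM (-0.25, SE 0.105). Enzymes that write or remove methyl groups on lysines 4 and 27 of histone H3, a mark the study followed, had a median of -0.03 with 6 of 21 above 0. The furthest of these were Suz12, a core subunit of the Polycomb complex, at 0.14 and Mll2, a lysine 4 methyltransferase, at -0.18.

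The 12 genes with the smallest p on each side, named whatever their role, included several of these lists and some of none. On the higher side after Plin4 stood Gm6636, a predicted coding gene on chromosome 18, with a log2 fold change of 1.42 (SE 0.241, adjusted p = 0.203 in limma). It rested on 9 to 25 reads per cocaine library and 2 to 6 reads per saline library. Then came Gm5801 at 0.42, listed as a pseudogene, whose reads may belong to a gene of like sequence, and Fkbp5, Hif3a and Zbtb16. The rest were Gm15417 (0.53), Narf, a nuclear protein that binds prelamin A (16.9 against 14.8 RPKM, 0.19), Dusp5, Tiparp, an ADP-ribosyltransferase (5.09 against 3.95 RPKM, 0.36), Trmt61b, listed as a lincRNA (0.23), and Gabrr2, a rho subunit of GABA receptors (1.09 against 0.542 RPKM, 0.91). Gm6636, Gm5801 and Narf did not overlap between the groups, as Fkbp5 and Zbtb16 did not. Adjusted p-values ran from 0.203 to 0.918.

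On the lower side the smallest p was that of Tec, a cytoplasmic tyrosine kinase. Its levels were 0.506 to 0.717 RPKM after cocaine (median 0.575) and 0.767 to 1.02 RPKM after saline (median 0.859). The groups did not overlap, and the log2 fold change was -0.53 (SE 0.0818, adjusted p = 0.152 in limma). The reads behind it were few, 32 to 47 per cocaine library and 57 to 74 per saline library. Without cocaine replicate 5 it was called, at -0.58 with an adjusted p of 0.0255 in limma.

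Mid1 encodes a ubiquitin ligase bound to microtubules. It ranged from 2.68 to 3.31 RPKM after cocaine (median 3.0) and from 3.5 to 5.21 RPKM after saline (median 4.33), again without overlap (-0.54, SE 0.0909, adjusted p = 0.203 in limma). Next came Parp8, an ADP-ribosyltransferase (5.43 against 6.45 RPKM, -0.24), and the linker histone gene Hist1h1c (3.43 against 4.61 RPKM, -0.40), both without overlap. Eln, the elastin gene, was at 0.425 against 0.751 RPKM (-0.66) without overlap, Mmrn2, an endothelial matrix protein, at 0.948 against 1.34 RPKM (-0.45), and Gkn3, found in brain arteries, at 2.37 against 4.25 RPKM (-0.86). Epor, the erythropoietin receptor gene, was at 1.02 against 1.47 RPKM (-0.49). The others were Kank4 (-0.35), Gm8619 (-0.67), Gpr137b-ps (-0.44) and the kinetochore gene Cenpo (-0.26, without overlap), and adjusted p-values ran from 0.152 to 0.738.

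The same genes were then read in 3 other comparisons of cocaine with saline, the NAc at 1 day, the VTA at 1 day and the PFC at 28 days, each in its own table and fit (edgeR on counts for the NAc and the PFC at 28 days, limma on RPKM for the VTA). No test was made between tables, and whether libraries of different regions came from the same animals is not stated. At an adjusted p under 0.05, 2 genes were called in the NAc at 1 day (0.0126%), 28 in the VTA at 1 day (0.186%) and 0 in the PFC at 28 days (0.0%). At an unadjusted p under 0.05 there were 4.01% of genes in the NAc, 15.4% in the VTA and 5.66% (925 genes) in the PFC at 28 days. Among the marker genes of those tables Slc17a7 had a log2 fold change of 2.11 in the VTA. Ppp1r1b, the DARPP-32 gene of striatal neurons, had -1.43 in the PFC at 28 days. There 8 of 10 striatal markers were past an unadjusted p of 0.05 on the lower side, against 2.97% of all genes. Levels there are in CPM, counts scaled to the total of the library as adjusted by TMM. Ppp1r1b was at 79.2 to 112 CPM after cocaine and 82.2 to 935 CPM after saline (means 89.5 and 241). Gng7, another of these markers, was at 126 to 154 CPM after cocaine and 122 to 947 CPM after saline (means 134 and 271). The highest saline library of each gene lay far above the cocaine range. How far it set the striatal values was not tested. In the VTA all 10 meningeal fibroblast markers lay above 0 (median 1.58), with 9 past the limit on the higher side, against 11.1% of all genes. The 5 blood markers had a median of 1.12. Of 12 microglial markers 10 were past the limit on the lower side (median -0.50), against 4.29% of all genes. The part of tissue content in those tables was not tested.

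Plin4 was called in both other regions at 1 day. In the NAc it was at 10.2 to 39.4 CPM after cocaine and 2.14 to 4.14 CPM after saline. Its log2 fold change there was 2.57 (adjusted p = 0.0199 in edgeR). In the VTA it was at 7.79 ± 4.35 RPKM after cocaine and 1.52 ± 0.414 RPKM after saline (SD, n = 6 each), and the lowest cocaine library, at 3.26 RPKM, lay above the highest saline library, at 2.18 RPKM (2.14, adjusted p = 0.0315 in limma). In the PFC at 28 days it was at 2.28 to 6.8 CPM after cocaine and 3.01 to 13.1 CPM after saline, with overlapping groups and a log2 fold change of -0.63 (SE 0.358, adjusted p = 0.842 in edgeR).

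Hif3a was the other gene of the list to be called elsewhere, in the NAc at 1 day, with 10.9 to 18.5 CPM after cocaine and 5.94 to 8.65 CPM after saline (1.08, adjusted p = 0.0122 in edgeR). For Fkbp5 the log2 fold change was 0.25 in the NAc, 1.02 in the VTA and -0.17 in the later PFC. Zbtb16 had 0.99, 1.02 and -0.04 in the same order, Sgk1 had 0.53, 1.11 and -0.30, and Sult1a1 had 0.75, 1.76 and -0.05. All 12 members past the unadjusted limit in the PFC at 1 day had values above 0 in the NAc and VTA at 1 day. In the PFC at 28 days 10 of the 12 lay below 0, and Dusp1 (0.33) and Errfi1 (0.03) lay above. Their levels overlapped between the groups there. Fkbp5 was at 26.5 to 33.4 CPM after cocaine and 25.5 to 49.3 CPM after saline (means 29.3 and 32.8). Sgk1 was at 44.4 to 65.3 CPM after cocaine and 41.6 to 111 CPM after saline (means 51.6 and 63.6). In both genes the highest saline library lay far above the cocaine range, and how far it set the fold change was not tested.

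**Figure D5:**
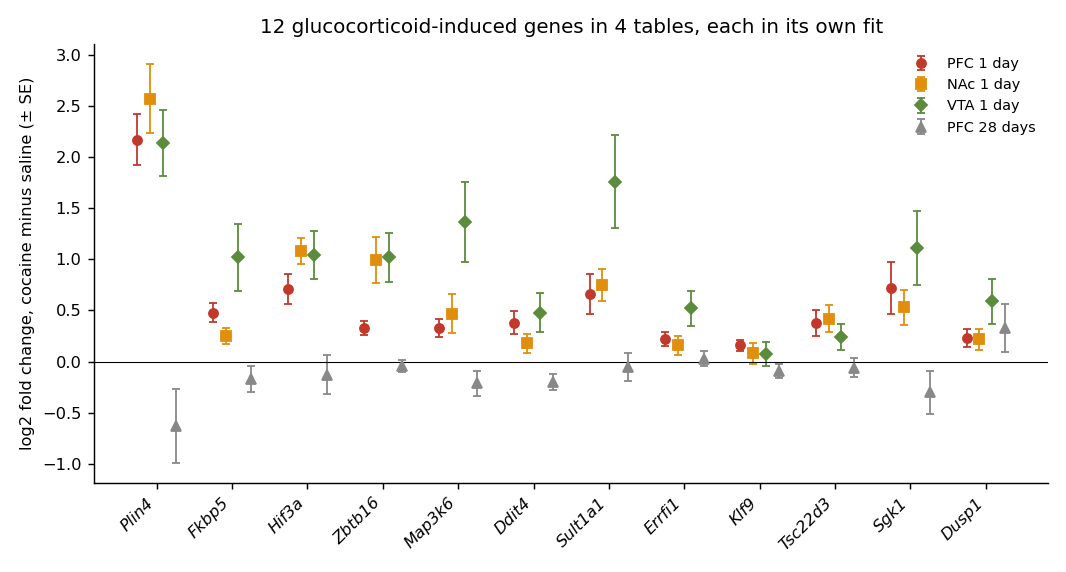
Log2 fold change of cocaine over saline ± SE for the 12 glucocorticoid-induced genes of the level plot, in the PFC at 1 day, the NAc at 1 day, the VTA at 1 day and the PFC at 28 days, each from its own fit. Plin4 lies at 2.17, 2.57, 2.14 and -0.63 in that order.

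Over the whole list of glucocorticoid-induced genes, 20 of 24 tested members were above 0 in the NAc at 1 day (median 0.18, with 10 past an unadjusted p of 0.05 on the higher side, against 2.76% of all genes, and 0 on the lower side, against 1.25%). In the VTA at 1 day 22 of 25 were above 0 (median 0.59, with 15 past the limit on the higher side, against 11.1% of all genes, and 0 on the lower side, against 4.29%). In the PFC at 28 days 5 of 25 were above 0 (median -0.13), with 1 past the limit on the higher side, against 2.69% of all genes, and 3 on the lower side, against 2.97%. Immediate early genes had medians of 0.17 in the NAc and 0.34 in the VTA at 1 day, and of 0.18 in the later PFC. Interferon-responsive genes had -0.24, 0.29 and -0.1, and Irf7 had -1.04, -0.22 and -0.43. Tec and Mid1, the leading genes of the lower side, had -0.01 and -0.45 in the NAc, 0.69 and -0.35 in the VTA and, after 28 days in the PFC, 0.02 and -0.10.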

How the data were processed

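For the PFC and VTA at 1 day the authors deposited RPKM values per gene, and for the NAc at 1 day and the PFC at 28 days they deposited raw read counts. Reads were aligned with STAR 2.4.1d to mm9 with Ensembl genes. The counting program and the use of strand are not given in the sources used here, so antisense and overlapping genes are uncertain. Columns of the authors' own comparisons (fold changes, p-values, shares of tests) and 18 value columns of no sample analysed here were not used.

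RPKM were tested with limma 3.58.1 (R 4.3.3) on log2(RPKM + 0.1), counts with edgeR 4.0.16 (glmQLFTest after filterByExpr, minimum count 10 and total 15, and TMM). SE are those of the log2 fold change, and levels are means ± SD where given. Reads were recovered from the RPKM for 23353 of 23353 genes with reads, within 0.0001 of a whole number, and used in edgeR and DESeq2 1.42.0 as alternatives. No 2 libraries of a group held the same values.

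Genes were named if called, among the 12 with the smallest p in each direction, named by the study, members of 14 gene lists with an unadjusted p under 0.05 (otherwise the 2 with the smallest p), or the 2 most abundant of each of 14 marker lists. A few genes that this rule names are not reported here. Other members and markers, and the choice of libraries to leave out, were picked after their values were seen. The members and lists were chosen with earlier results of these data known. No pairing of the libraries by replicate number was seen. Gene positions were taken from GENCODE M1 on mm9. Alternatives were a pseudocount of 1, no filter, a mean of at least 1 RPKM, a trended robust variance, TMM, a replicate block, an adjusted p under 0.25 and leaving out each library. Scripts were tested on simulated data. Figures used matplotlib 3.10.9.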

Additional observations from a re-analysis of the deposited data

Results flagged for a closer look

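Among the named genes and list levels, 21 of 238 groups of 6 libraries had a library whose gap to its nearest neighbour was a large part of the group's range (Dixon's 95% limit), and chance gives about 1 in 20. In cocaine replicate 5 Ifitm3 was highest of its group at 12.8 RPKM, as was Oasl2 at 1.53 RPKM. The same library had the highest mean log2 level of interferon-responsive genes among the cocaine libraries, 1.44, and the lowest of upper-layer neuron markers, 3.46. Cocaine replicate 1 was highest for Fkbp5, 13.1 RPKM, and for the mean log2 level of the hypoxia system, 3.98. Cartpt was highest in cocaine replicate 2 (2.42 RPKM) and Kank4 in cocaine replicate 3 (1.36 RPKM).

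Of the saline libraries, replicate 6 was highest for Mertk (15.1 RPKM), Bhlhe40 (50.6 RPKM), Ccdc141 (2.82 RPKM) and Gabrd (20.5 RPKM). It was lowest for Gm5801 (1.36 RPKM) and for the mean log2 level of deep-layer neuron markers, 3.06. Saline replicate 5 was lowest for Ifitm3 (7.79 RPKM) and Gm8619 (0.876 RPKM) and highest for Hspa1a (0.773 RPKM). Saline replicate 3 was lowest for Parp8 (5.78 RPKM) and highest for Etv1 (31.7 RPKM) and Ddx3y (15.5 RPKM). Saline replicate 1 was highest for Kl, at 1.02 RPKM.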

How the results depend on the processing

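Plin4 was called in all 8 fits with all libraries, with log2 fold changes of 1.35 (pseudocount 1) to 2.41 (edgeR) and adjusted p-values of 3.85e-12 to 0.0449. Leaving out 1 library at a time, the Plin4 log2 fold change was 2.01 to 2.28, and its adjusted p was above 0.05 without cocaine replicate 4 (0.0568), saline replicate 3 (0.0583) or saline replicate 4 (0.0503). The number of genes called was 5 in DESeq2 (Plin4, Fkbp5, Mid1, Hif3a and Zbtb16), 4 at an adjusted p under 0.25 (Plin4, Tec, Mid1 and Gm6636) and 0 to 2 without 1 library. It was 0 without cocaine replicate 4, saline replicate 3 or saline replicate 4, and 2 without cocaine replicate 5 (Plin4 and Tec) or saline replicate 5 (Plin4 and H2-Gs10). Genes with an unadjusted p under 0.05 numbered 1005 with no filter, where more genes are tested, and 483 to 1237 without 1 library, with 1237 without saline replicate 3. The glucocorticoid-induced genes past that limit numbered 11 to 14 in all of these fits.

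The replicate block left Plin4 the single call (2.17, adjusted p = 0.0235 in limma), with 544 genes and 11 glucocorticoid-induced genes past the unadjusted limit. Same-numbered libraries had correlations of -0.163 to 0.0715 in their deviations, 0 of 6 over 0.1, so no pairing by number was seen. A correlation over all tested genes could miss a pairing that touches few of them. Small values that changed sign were Cbl (0.01 in DESeq2 and edgeR), Olig1 (0.01 in both) and Ttr (0.20 in DESeq2, 0.21 in edgeR and 0.04 with a pseudocount of 1). Without 1 library, ranges across 0 were -0.06 to 0.04 for Cbl, -0.14 to 0.03 for Cartpt, -0.02 to 0.05 for Slc1a2, -0.07 to 0.04 for Aldoc, -0.09 to 0.05 for Olig1, -0.07 to 0.01 for Pdgfra, -0.14 to 0.09 for Kl, -0.19 to 0.35 for Ttr, -0.03 to 0.06 for Rasgrf2, -0.16 to 0.08 for Crym, -0.08 to 0.04 for Sst, -0.04 to 0.02 for Gad1 and -0.01 to 0.15 for Eif2s3y. The cause of these changes was not tested. Changes under 1.5-fold are mostly beyond what 6 libraries a group show gene by gene. Some larger ones were not called either, such as Gm6636 (log2 fold change 1.42) and Irf7 (-0.94).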
